A study of Danio rerio with 21 samples.

Results

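Zebrafish that had spent the 10 days from 25 to 35 dpf (days post fertilization) at 35 °C, the group T35D, were compared with fish of the same stock taken at 25 dpf, before any warming, the group C25D. The comparison takes 6 of the 21 libraries of the series, 3 of T35D and 3 of C25D, chosen by their labels alone. The study followed gonadal differentiation in fish that were warmed, and in fish that were not, at later ages. All fish were of the AB strain, offspring of a mating within 1 family, kept with 14 h of light and 10 h of dark, and their labelled genotype was wild type. C25D fish had been kept at 28 °C throughout. C35D fish, 3 libraries of the same age as T35D that had stayed at 28 °C, are given beside the comparison, because T35D and C25D differ in age as well as in temperature and these cannot be told apart from the 6 libraries alone.

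RNA came from the whole body of several fish per collection, so each value is an average over all organs, and the number of fish in a library was not given in the sources used here. In such material fewer cells of a type and less RNA per cell cannot be told apart. The replicates are described as independent biological replicates, and p-values measure the spread between these libraries. Reads were counted on 26225 coding genes, of which 24087 could be given a symbol. The expected counts summed to 13438281, 11875436 and 16471158 in T35D-1, T35D-2 and T35D-3, against 12415175, 12136789 and 13616124 in C25D-1, C25D-2 and C25D-3. Levels are given in CPM (counts per 1000000, on library sizes scaled by edgeR's TMM method over the 9 libraries of T35D, C35D and C25D), and 3 counts amounted to between 0.182 and 0.253 CPM.

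When the water warms, cells of fish raise chaperones, proteins that keep others folded, through heat shock transcription factors. Young zebrafish pass through a stage in which the gonad of most individuals holds early oocytes, and it then becomes an ovary or a testis, a choice that heat can shift. Over the same weeks the juvenile completes its metamorphosis, with new scales and teeth, adult globins, adult pigment and a growing gut.

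The 3 T35D libraries were not alike, and this bears on every result. Across genes, the log2 CPM of T35D-1 correlated with those of the 3 C25D libraries at r = 0.938 to 0.952, close to the 0.971 to 0.974 among the C25D libraries themselves. T35D-2 correlated with C25D at 0.626 to 0.678 and T35D-3 at 0.589 to 0.615, and T35D-2 and T35D-3 with each other at 0.877, a description over genes that are not independent. Markers of oocytes (zp3b, gdf9, bmp15, figla and buc) summed to 4.01, 3918 and 3562 CPM in T35D-1, T35D-2 and T35D-3, to 115, 396 and 16.9 CPM in C35D and to 2.19, 4.86 and 0.998 CPM in C25D. None of these 5 markers was at 0 in all libraries of a group. The oocyte signal was thus high in T35D-2 and T35D-3 and within the C25D range in T35D-1. Liver markers summed to 11402, 3020.4 and 2483 CPM in T35D against 12734, 11974 and 11684 CPM in C25D, again with T35D-1 near the C25D libraries. Markers of the retina were low in T35D-3, at 81.7 CPM, and in C35D-1, at 1.45 CPM, against 1648 to 2333 CPM in C25D. The part of such tissue shares in the results below was not tested, and results are therefore given with and without T35D-1 where that matters.

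**Figure D1:**
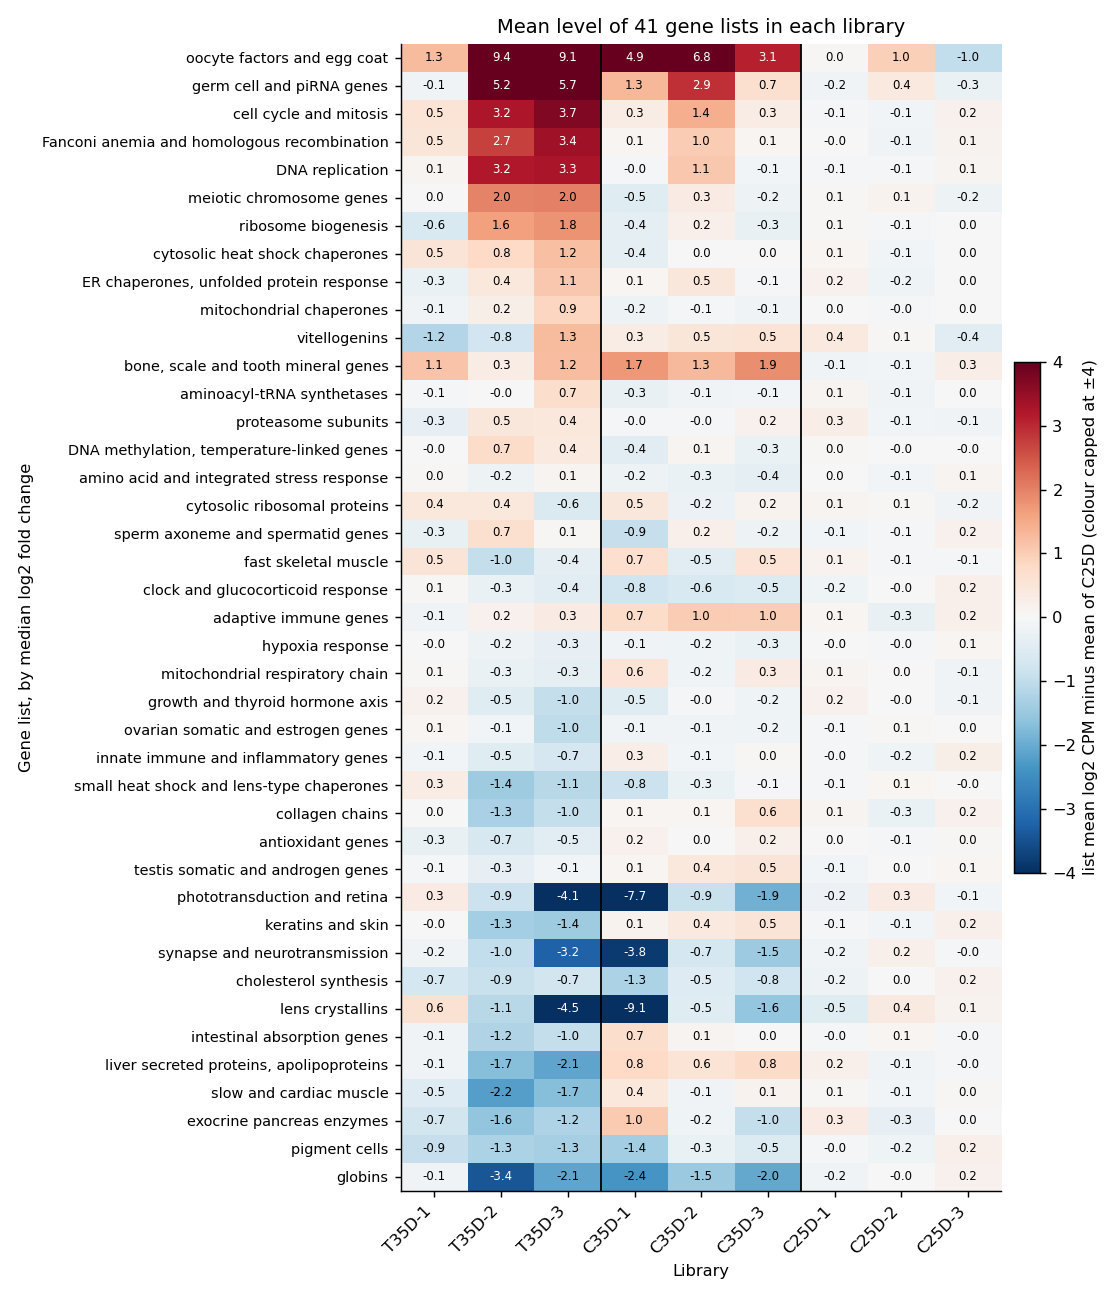
Mean level of each of 41 gene lists (rows) in each library (columns), in log2 CPM minus the mean of the 3 C25D libraries, so that 1 unit is a doubling. Means are over the members with enough counts to be tested, which in the oocyte list favors members with counts in T35D-1. Oocyte, germ cell and proliferation genes are far higher in T35D-2 and T35D-3 than in T35D-1. The list means of cytosolic chaperones and cell cycle genes lie above all C25D libraries in all 3 T35D libraries.

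Of 19933 genes with enough counts, the quasi-likelihood test of edgeR, with p-values adjusted after Benjamini and Hochberg, called 0 at 0.05 in either direction (0.0% of genes each way), and the smallest adjusted p was 0.118. At an unadjusted p of 0.05 or less, 3719 genes (18.7%) were higher and 1540 (7.73%) lower in T35D. In 2867 genes (14.4%) every T35D library lay above every C25D library, and in 3402 genes (17.1%) every T35D library lay below. DESeq2 called 2790 genes higher (12.8%) and 600 lower (2.76%). Without T35D-1, edgeR called 5872 higher (28.1%) and 4050 lower (19.4%), whereas without T35D-2, without T35D-3 or without any 1 of the C25D libraries it called 0. Since no gene passed the adjusted threshold with all 6 libraries, genes below are called higher or lower by their values. Each count of list members at an unadjusted p of 0.05 stands against the 18.7% higher and 7.73% lower of all genes. The split by direction depended on the scaling. With scaling by library size alone, 52.6% of the genes at an unadjusted p of 0.05 were higher, against 70.7% with TMM, and the median log2 fold change over all genes moved to -0.23, against 0.01 with TMM.

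Genes of the cytosolic chaperone list were mostly higher in T35D, and in T35D-1 as well as in T35D-2 and T35D-3. Over the 36 tested members the log2 fold change had a median of 0.99, against 0.01 over all genes. At an unadjusted p of 0.05, 16 of the 36 were higher (18.7% of all genes) and 0 lower. 18 of the 36 lay above C25D in every T35D library (14.4% of all genes), and 0 lay below. T35D-1 taken alone exceeded all 3 C25D libraries for 28 of the 36, where 35.8% of all genes did so. In C35D against C25D, which shares the C25D libraries, the median of the same genes was -0.01, with 4 members above C25D in every library (14.7% of all genes) and 7 below (21.9%).

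The inducible Hsp90 gene hsp90aa1.2 had 171, 262 and 149.7 CPM in T35D and 14.7, 32.3 and 20.1 CPM in C35D, against 41.6, 45.1 and 33.6 CPM in C25D. Each T35D library exceeded all of the other 6, by a log2 fold change of 2.28 ± 0.36 (SE) over C25D. Its adjusted p was 0.118 in edgeR's quasi-likelihood test, 2.1e-06 in DESeq2 and 0.00163 in edgeR without T35D-1. Its tandem neighbour by name, hsp90aa1.1, known for its place in the folding of muscle myosin, was not separate, with 197, 112 and 156 CPM in T35D and 193, 156 and 317 CPM in C35D, against 170.0, 111 and 114 CPM in C25D. The Hsp110 gene hsph1, whose protein exchanges the nucleotide of Hsp70, had 10.6, 11.6 and 8.34 CPM in T35D against 3.20, 2.80 and 2.43 CPM in C25D. Its log2 fold change was 1.86 ± 0.38, with little spread between the T35D libraries.

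The Hsp70 family differed among its members. hspa8b, a gene of the constitutive branch by name, had 17.7, 71.4 and 184 CPM in T35D, 4.20, 3.74 and 5.78 CPM in C35D and 3.90, 3.83 and 4.55 CPM in C25D, so that every T35D library was above all others although T35D-3 was much higher than T35D-1. Its log2 fold change was 4.50 ± 0.84. The main constitutive gene hspa8 was nearly level, with 3731, 4214 and 3899.6 CPM in T35D against 3345, 3323 and 3259 CPM in C25D (log2 fold change 0.26 ± 0.33). The heat-inducible hsp70.1 had 44.6, 90.3 and 135 CPM in T35D and 7.76, 19.6 and 10.8 CPM in C35D, against 33.5, 31.6 and 29.9 CPM in C25D. For hsp70.3 the values were 30.3, 27.2 and 24.5 CPM in T35D and 5.49, 15.1 and 6.89 CPM in C35D, against 23.0, 19 and 20.1 CPM in C25D, while hsp70l had 60.7, 39.7 and 34.3 CPM in T35D and 3.72, 19.5 and 15.8 CPM in C35D, against 32.2, 34.7 and 27.9 CPM in C25D. In these 3 inducible genes C35D lay below C25D in every library. The log2 fold change of T35D over C25D was 1.52 for hsp70.1, 0.41 for hsp70.3 and 0.51 for hsp70l, and only in hsp70l did the T35D and C25D libraries overlap. Near-identical copies can share reads, so the split of counts among the hsp70 genes is uncertain.

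Among co-chaperones, the immunophilin gene fkbp4, which works with Hsp90 on steroid receptors, had 99.4, 156 and 198 CPM in T35D and 58.1, 54.1 and 69.1 CPM in C35D, against 48.3, 45.9 and 41.5 CPM in C25D (log2 fold change 1.76 ± 0.37, adjusted p = 0.00163 in DESeq2). The collagen chaperone gene serpinh1b overlapped, with 313, 123 and 204 CPM in T35D against 164, 84.1 and 78.8 CPM in C25D. Small heat shock proteins, which hold unfolded proteins without ATP, were mixed. Over the 13 tested members of their list, which holds lens-type alpha crystallins as well, the median log2 fold change was -0.44, with 1 higher and 3 lower by an unadjusted p of 0.05. hspb1 had 277, 24.0 and 158 CPM in T35D against 33.1, 21.7 and 35.4 CPM in C25D, high in T35D-1 and T35D-3 and within C25D in T35D-2. The muscle gene hspb6 was lower in all T35D libraries, at 11.4, 5.95 and 6.79 CPM in T35D and 17.4, 11.2 and 18.4 CPM in C35D, against 26.6, 32.1 and 33.9 CPM in C25D. The list median turned to 0.0077 without T35D-2.

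**Figure D2:**
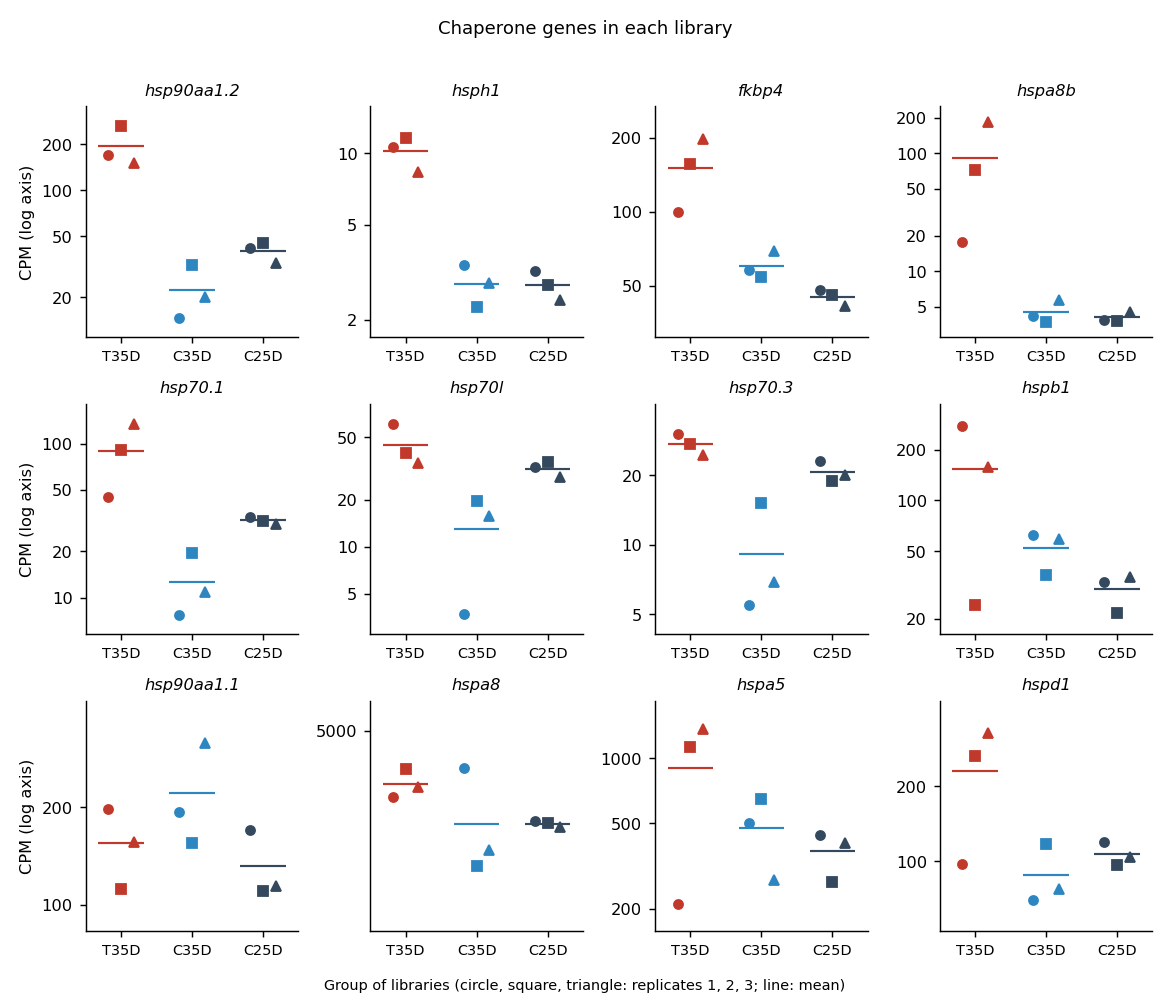
Levels of 12 chaperone genes (CPM on a logarithmic axis) in T35D (red), C35D (blue) and C25D (dark), with each library as a point and the group mean as a line. For hsp90aa1.2, hsph1, fkbp4, hspa8b and hsp70.1 every T35D library is above every C25D library, while hspa5 and hspd1 are higher in T35D-2 and T35D-3 only.

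Chaperones of the endoplasmic reticulum and the mitochondrion differed from the cytosolic ones in T35D-1. The endoplasmic reticulum list had 0.91 as its median over 27 genes and 5 higher by an unadjusted p of 0.05, near the 18.7% of all genes, and 2 lay above C25D in every T35D library, where 14.4% of all genes did. T35D-1 lay below all C25D libraries for 16 of them, where 34.4% of all genes did. The lumenal Hsp70 gene hspa5 had 211, 1124 and 1371 CPM in T35D against 442, 268 and 405 CPM in C25D, and the disulfide isomerase gene pdia4 had 31.5, 412 and 534 CPM in T35D against 82.6, 56.5 and 78.9 CPM in C25D. Both were lowest in T35D-1 and highest in T35D-3. For the 12 mitochondrial chaperones the median was 0.55, with 1 higher and 0 lower by an unadjusted p of 0.05. The Hsp60 gene hspd1 had 97.7, 265 and 327 CPM in T35D against 119, 96.9 and 104 CPM in C25D, and T35D-1 lay within the C25D range. Of 35 proteasome subunits, 0 had an unadjusted p of 0.05 or less, their median was 0.24 (-0.0022 with scaling by library size alone), and T35D-1 lay below C25D for 26.

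Genes of the oocyte and the germ line were far higher in T35D-2 and T35D-3 than in T35D-1. Of the 25 tested oocyte factors and egg coat genes, 21 were higher by an unadjusted p of 0.05 and the median log2 fold change was 10.80, a value that rests on very few counts in C25D. DESeq2 called 35 of the 39 members that it tested higher (12.8% of all genes). Leaving out T35D-1 let 39 members pass edgeR's filter on low counts, where 25 passed with it. Of these 39, edgeR called 36 higher and 1 lower (28.1% and 19.4% of all genes). Members with counts in T35D-2 and T35D-3 alone could enter this fit and that of DESeq2, so neither count is separate support. 15 of the 25 lay above C25D in every T35D library (14.4% of all genes), and T35D-1 alone was above all C25D libraries for 16 and below for 1 (35.8% and 34.4% of all genes), mostly at low levels. With T35D-1 in the fit, members with few counts in C25D passed the filter more readily where T35D-1 itself held counts. These counts of members above C25D were thus tilted by the filter and say little about T35D-1. The egg coat gene zp2.1 had 1.31, 4176 and 3450.4 CPM in T35D and 195, 343 and 19.5 CPM in C35D, against 0.390, 0.221 and 0.249 CPM in C25D, where the 3 libraries held 12 counts in all. zp3b had 2.54, 2263 and 1864 CPM in T35D and 86.6, 260.0 and 10.44 CPM in C35D, against 1.33, 2.43 and 0.561 CPM in C25D. Egg coat genes form a family of close copies, so the level of a single copy is uncertain. All 3 C35D libraries were above C25D for 20 of the 25 (14.7% of all genes), so that these oocyte genes were also higher at 35 dpf without warming. The list median was 6.79 over the 32 genes tested there. Members with few counts in C25D passed that filter through their counts in C35D, so this median was tilted by the filter too. In zp2.1 and zp3b the T35D libraries lay on both sides of C35D, T35D-1 below and T35D-2 and T35D-3 above.

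Germ cell genes were also high in T35D-2 and T35D-3. 17 of the 18 tested members of the germ cell and piRNA list were higher by an unadjusted p of 0.05 (18.7% of all genes), with a median of 5.43. T35D-1 lay above C25D for only 4 of the 18, where 35.8% of all genes did so. It lay below C25D for 7 of the 18, near the 34.4% of all genes. ddx4, coding for the germ plasm helicase Vasa, had 4.47, 105 and 186 CPM in T35D and 14.6, 39.2 and 12.5 CPM in C35D, against 5.15, 6.78 and 4.68 CPM in C25D. gtsf1, needed for the piRNA pathway, had 0.848, 204 and 148 CPM in T35D and 5.49, 20.1 and 1.53 CPM in C35D, against 0.390, 0.442 and 0.249 CPM in C25D. Of 15 meiotic chromosome genes, 9 were higher and 0 lower by an unadjusted p of 0.05, with a median of 2.04. brdt, a reader of acetylated histones used in germ cells, was above C25D in every T35D library, with 65.6, 282 and 150.0 CPM in T35D and 39.8, 40.0 and 31.6 CPM in C35D, against 42.1, 42.8 and 37.0 CPM in C25D.

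Genes known for the somatic gonad passed the unadjusted threshold in both directions, where 18.7% of all genes were higher and 7.73% lower. Of the 12 ovarian somatic and estrogen genes, 1 was higher and 0 lower by an unadjusted p of 0.05, with a median of -0.26. The higher one was the estrogen receptor gene esr2a, with 3.70, 7.84 and 11.4 CPM in T35D and 5.58, 3.74 and 3.90 CPM in C35D, against 2.03, 2.06 and 2.56 CPM in C25D. Among the 14 testis somatic and androgen genes, 2 were higher and 3 lower, with a median of -0.57. cyp17a1, a step in the making of androgens and estrogens, had 0.925, 30.9 and 99.5 CPM in T35D and 0.889, 8.84 and 1.74 CPM in C35D, against 0.859, 0.737 and 0.499 CPM in C25D. star, which brings cholesterol into steroid-making mitochondria, was lower at 1.54, 1.32 and 0.354 CPM in T35D against 3.90, 4.35 and 5.18 CPM in C25D. The nuclear receptor gene nr5a2 was also lower, at 2.54, 1.80 and 0.849 CPM in T35D and 6.71, 6.63 and 6.89 CPM in C35D, against 5.08, 4.35 and 4.12 CPM in C25D.

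The male-pathway gene dmrt1 had 0.694, 1.51 and 13.6 CPM in T35D against 0.234, 0.810 and 0.561 CPM in C25D, with T35D-3 far above the rest (unadjusted p = 0.0217 in edgeR's quasi-likelihood test). Counts of amh, foxl2a, cyp19a1a, sycp3 and vtg2 were too low to be tested. The highest CPM of cyp19a1a, coding for the gonadal aromatase, was 0.566, in T35D-3, and it was at 0 in all 3 C25D libraries. The brain aromatase gene cyp19a1b had 4.70, 3.97 and 1.48 CPM in T35D against 3.98, 3.61 and 3.18 CPM in C25D. sox9a had 3.16, 0.756 and 2.33 CPM in T35D against 3.44, 4.35 and 6.05 CPM in C25D, and sox9b had 3.24, 1.42 and 6.01 CPM in T35D against 4.45, 4.79 and 4.74 CPM in C25D, where T35D lay on both sides. Of 16 sperm axoneme and spermatid genes 4 were higher and 1 lower by an unadjusted p of 0.05, with a median of 0.05 that turned to -0.20 with scaling by library size alone. The 3 vitellogenins that were tested, precursors of yolk, had a median of 0.54 and 0 with such a p in either direction. The highest of their T35D values was 2.55 CPM, for vtg7 in T35D-3, and the highest in C25D was 2.19 CPM, for vtg5 in C25D-1. Without T35D-3 their median was -1.18.

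Proliferation genes were higher in T35D-2 and T35D-3, and to a small extent in T35D-1 for the cell cycle and Fanconi anemia lists. The cell cycle and mitosis list had 52 of 55 genes higher by an unadjusted p of 0.05 (18.7% of all genes) and 42 above C25D in every T35D library (14.4% of all genes), with a median log2 fold change of 3.05. T35D-1 alone was above all C25D libraries for 43 of the 55 (35.8% of all genes). Of DNA replication genes, 45 of 47 were higher and 2 lower, with a median of 2.57; the lower ones were the helicase genes mcm3 and mcm6, named after their values were seen. Of Fanconi anemia and homologous recombination genes, which repair crosslinks and double strand breaks, 36 of 38 were higher, with a median of 2.69. T35D-1 alone was above all C25D libraries for 26 of these 38. For the 47 replication genes it was above for 19 and below for 10 (35.8% and 34.4% of all genes). The mean log2 CPM of the replication list was 2.90 in T35D-1, within the 2.74 to 2.92 of C25D. The C35D medians against C25D were 0.70, 0.28 and 0.48 for the cell cycle, replication and Fanconi lists. Oocyte markers were also highest in T35D-2 and T35D-3, and their part in these lists was not tested.

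The ubiquitin-conjugating enzyme gene ube2c, used in the exit from mitosis, had 24.3, 247 and 170.4 CPM in T35D and 17.6, 38.1 and 20.0 CPM in C35D, against 9.45, 10.8 and 12.2 CPM in C25D. anln, coding for anillin of the cleavage furrow, had 29.8, 73.3 and 140.4 CPM in T35D and 27.6, 35.8 and 21.4 CPM in C35D, against 10.38, 10.2 and 15.0 CPM in C25D. In both genes T35D-1 was above every C25D library and inside the range of C35D. The nuclease gene mus81 had 8.87, 51.2 and 50.2 CPM in T35D against 2.34, 2.65 and 3.12 CPM in C25D, and its partner eme1 had 3.39, 64.4 and 80.7 CPM in T35D against 1.87, 1.47 and 1.93 CPM in C25D. mcm3l, named for its likeness to a subunit of the replicative helicase, had 1.70, 318 and 339 CPM in T35D and 8.97, 43.9 and 2.298 CPM in C35D, against 0.625, 0.737 and 0.811 CPM in C25D. Its T35D-1 value was close to C25D, whereas T35D-2 and T35D-3 were far above every other library.

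DNA methylation has been tied to temperature and sex in fish. Of the 29 genes in the list of DNA methylation and temperature-linked chromatin or RNA-binding genes, 9 were higher and 2 lower by an unadjusted p of 0.05. The list median was 0.23 and turned to -0.015 with scaling by library size alone. The maintenance methyltransferase gene dnmt1 had 20.7, 501 and 1158 CPM in T35D and 22.1, 109.8 and 23.4 CPM in C35D, against 26.2, 26.1 and 31.1 CPM in C25D. Likewise dnmt3bb.2, a de novo methyltransferase gene, had 2.31, 61.1 and 67.9 CPM in T35D against 2.97, 3.17 and 2.87 CPM in C25D. In both, T35D-1 was below the C25D libraries and the other T35D libraries far above. Their co-factor gene uhrf1 had 19.3, 46.8 and 67.8 CPM in T35D against 16.48, 16.7 and 19.3 CPM in C25D, with T35D-1 level with the highest C25D library.

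The demethylase gene tet1 was lower, at 0.617, 0.378 and 0.283 CPM in T35D and 0.242, 1.76 and 1.25 CPM in C35D, against 2.19, 1.55 and 2.18 CPM in C25D. clk2b, of a kinase family whose activity falls with warmth in mammals and reptiles, had 11.5, 61.7 and 47.3 CPM in T35D and 6.71, 8.50 and 5.71 CPM in C35D, against 7.57, 8.62 and 6.55 CPM in C25D. The cold-inducible RNA-binding protein genes were not separate. cirbpa had 244, 527 and 289 CPM in T35D against 302, 300.1 and 306 CPM in C25D, and cirbpb had 686, 850.3 and 714 CPM in T35D against 725, 664 and 714 CPM in C25D. The histone demethylase gene kdm6bb overlapped at 122, 125 and 31.0 CPM in T35D against 82.0, 94.9 and 91.1 CPM in C25D. For jarid2b, of a Polycomb complex, the values were 5.86, 16.4 and 3.32 CPM in T35D against 3.75, 2.65 and 2.12 CPM in C25D, with T35D-3 inside the C25D range. With scaling by library size alone the log2 fold changes of cirbpa, cirbpb and kdm6bb turned negative, at -0.015, -0.14 and -0.18.

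**Figure D3:**
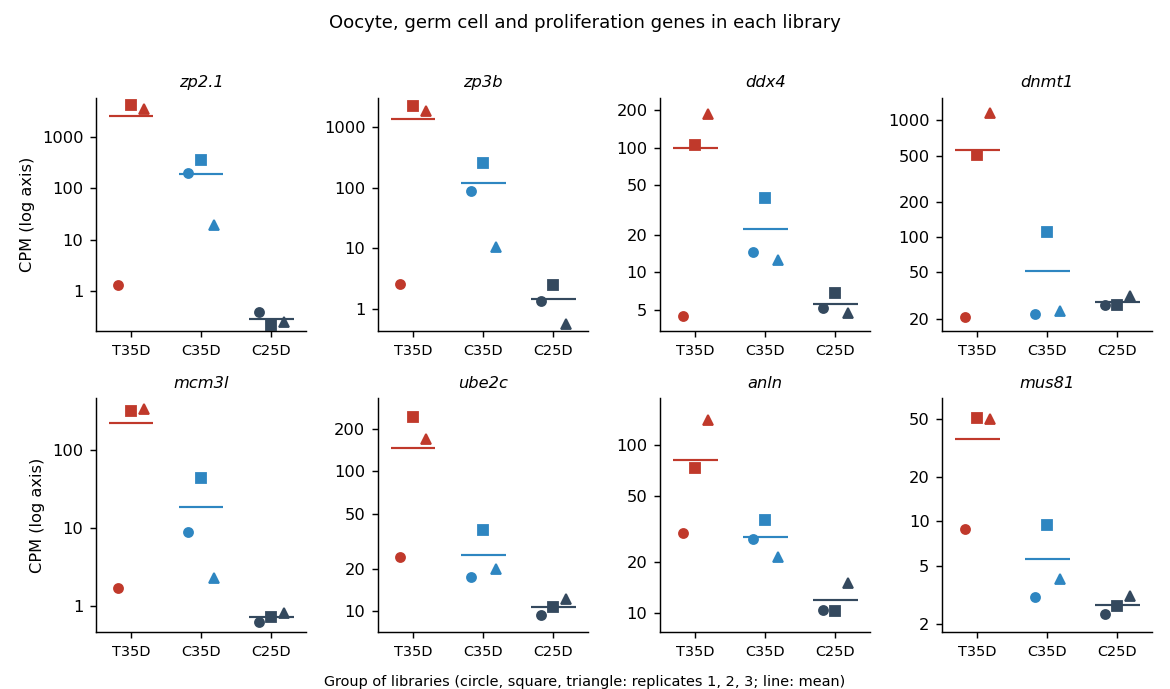
Levels of 8 oocyte, germ cell and proliferation genes (CPM on a logarithmic axis) in T35D (red), C35D (blue) and C25D (dark), each library a point and each mean a line. T35D-1, the circle, is much nearer to the C25D libraries than to T35D-2 and T35D-3 in zp2.1, ddx4, dnmt1 and mcm3l, and C35D lies between for the egg coat genes.

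Ribosome biogenesis genes divided the T35D libraries. Of 58 members, 24 were higher by an unadjusted p of 0.05 (18.7% of all genes), with a median of 1.32, yet 0 lay above C25D in all T35D libraries. T35D-1 was below all C25D libraries for 54 of the 58 (34.4% of all genes). Without T35D-1, edgeR's quasi-likelihood test called 55 of the 58 higher (28.1% of all genes). bop1, needed to process the large subunit's RNA, had 12.7, 101 and 109.8 CPM in T35D against 17.96, 14.3 and 16.2 CPM in C25D. The cytosolic ribosomal proteins did the reverse in T35D-1, which lay above C25D for 74 of 74 (35.8% of all genes). T35D-2 was as high. The mean log2 CPM of the list was 10.12, 10.13 and 9.13 in T35D and 10.17, 9.47 and 9.86 in C35D, against 9.80, 9.76 and 9.55 in C25D. The median log2 fold change of these genes was 0.17 (-0.057 with scaling by library size alone), and 0 had an unadjusted p of 0.05 or less. Aminoacyl-tRNA synthetases had a median of 0.30, with 1 of 19 higher, the methionine enzyme gene mars1. Of 29 genes of the amino acid and integrated stress response, 2 were higher and 2 lower, with a median of 0.18 that turned to -0.073 with scaling by library size alone. One of the higher ones, ddit4, an inhibitor of the growth kinase mTOR, had 41.1, 62.5 and 23.1 CPM in T35D and 12.2, 18.6 and 14.7 CPM in C35D, against 10.2, 11.93 and 16.2 CPM in C25D.

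Most digestive enzyme genes were lower in all 3 T35D libraries. Of 27 exocrine pancreas enzymes, 17 were lower and 1 higher by an unadjusted p of 0.05 (7.73% of all genes were lower), and 21 lay below C25D in every library (17.1% of all genes). The median was -1.19, and C35D against C25D, which shares the C25D libraries, had 0.12. The carboxypeptidase gene cpa1 had 24.4, 16.0 and 23.1 CPM in T35D and 122, 53.2 and 33.9 CPM in C35D, against 68.2, 55.8 and 73.0 CPM in C25D. The elastase gene ela2 had 77.0, 19 and 60.6 CPM in T35D and 339.6, 179 and 69.9 CPM in C35D, against 319.5, 225 and 304 CPM in C25D. Chymotrypsinogen ctrb.2 was even across the warmed libraries, with 27.3, 26.4 and 29.7 CPM in T35D against 167, 59.4 and 87.5 CPM in C25D. cpo, a carboxypeptidase of the gut brush border, was at 2.85, 1.98 and 2.19 CPM in T35D and 36.6, 25.6 and 15.4 CPM in C35D, against 12.6, 23.3 and 24.4 CPM in C25D. Its log2 fold change was -3.08 ± 0.44, with an adjusted p of 7.99e-08 in DESeq2.

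Liver and gut genes were lower to different degrees. Of 53 liver secreted proteins and apolipoproteins, 15 were lower and 0 higher by an unadjusted p of 0.05 (7.73% of all genes were lower), with a median of -1.04. Without T35D-1 edgeR called 46 lower (19.4% of all genes in that fit), with a median of -1.94, and the liver markers of T35D-1 were near those of C25D. In C35D the same list was on the other side of C25D, with a median of 0.74 and 41 of 53 above C25D in every library (14.7% of all genes). T35D lay below C35D in every library for 45 of the 53 (13.5% of all genes). cfh, coding for complement factor H, had 12.1, 7.84 and 7.57 CPM in T35D and 61.5, 70.22 and 103 CPM in C35D, against 24.8, 27.7 and 32.4 CPM in C25D. The hemopexin gene hpxb, whose protein binds free heme, had 5.40, 1.32 and 3.18 CPM in T35D and 19.4, 28.5 and 49.6 CPM in C35D, against 16.3, 13.0 and 13.7 CPM in C25D. In both genes the 3 groups did not overlap. The retinol carrier gene rbp4 was lower in T35D, with C35D nearer to C25D, at 468, 193 and 147 CPM in T35D and 683, 979.9 and 646 CPM in C35D, against 1255, 1015 and 1013 CPM in C25D.

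The 1 higher enzyme was the amylase gene amy2al1, named after its values were seen. Of 34 intestinal absorption genes, 8 were lower and 1 higher, with a median of -0.85. cubn, a receptor for vitamin B12 and proteins, had 42.7, 25.7 and 44.3 CPM in T35D and 149, 62.5 and 55.6 CPM in C35D, against 95.5, 101 and 102 CPM in C25D. The bile acid carrier slc10a2 had 15.0, 7.18 and 13.4 CPM in T35D and 18.4, 11.2 and 20.1 CPM in C35D, against 39.1, 35.1 and 29.3 CPM in C25D. For slc10a2, C35D was thus also below C25D in every library and overlapped T35D. The higher member was the chitinase gene chia.4, with 5.71, 389.6 and 1099.9 CPM in T35D and 36.1, 137 and 11.8 CPM in C35D, against 6.17, 5.08 and 5.05 CPM in C25D. It was far higher in T35D-2 and T35D-3 than in T35D-1. acp5a of the bone list, at 1.23, 1252 and 1038 CPM in T35D and 16.6, 118 and 5.29 CPM in C35D against 1.41, 1.18 and 1.497 CPM in C25D, and ctss2.1 of the adaptive immune list, at 2.31, 873 and 824 CPM in T35D and 16.2, 92.5 and 7.80 CPM in C35D against 4.53, 2.87 and 4.99 CPM in C25D, were so too.

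Slow and cardiac muscle genes were mostly lower, while fast muscle genes divided the T35D libraries. Of 30 slow and cardiac muscle genes, 12 were lower and 0 higher by an unadjusted p of 0.05 (7.73% of all genes were lower), and 18 lay below C25D in every T35D library (17.1% of all genes), with a median of -1.12 against 0.30 in C35D. The slow myosin gene smyhc1 had 218, 70.5 and 79.8 CPM in T35D and 299, 294 and 449.7 CPM in C35D, against 707, 704 and 744 CPM in C25D. Cardiac-type troponin C, tnnc1a, was at 0.540, 0.0945 and 0.354 CPM in T35D and 7.68, 4.14 and 5.78 CPM in C35D, against 4.76, 3.39 and 6.86 CPM in C25D. Cardiac myosin-binding protein C, mybpc3, was at 45.9, 20.4 and 33.6 CPM in T35D against 85.0, 75.8 and 84.3 CPM in C25D. The list of 50 fast skeletal muscle genes had a median of 0.03 (-0.21 with scaling by library size alone), with 4 higher and 3 lower. T35D-1 alone was above all C25D libraries for 35 of the 50 and below for 8 (35.8% and 34.4% of all genes). The mean log2 CPM of this list was 10.52, 9.05 and 9.65 in T35D, against 10.15, 9.93 and 9.93 in C25D. Without T35D-1 its median was -0.31. Within it the calcium buffer gene pvalb3 was higher at 559.7, 404 and 1431 CPM in T35D and 306, 134 and 374 CPM in C35D, against 75.9, 47.1 and 45.1 CPM in C25D. The calcium pump gene atp2a1 was lower at 777, 110.5 and 227 CPM in T35D and 607, 545 and 719 CPM in C35D, against 1659.7, 1531 and 1941 CPM in C25D.

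Single mineral genes of bone, scales and teeth were higher at 35 dpf in warmed and unwarmed fish. scpp7, of the secretory calcium-binding phosphoprotein family that builds tooth and scale mineral, had the smallest p among the higher genes taken by the rule on named genes. It had 399.6, 133 and 438 CPM in T35D and 1739, 677 and 2043 CPM in C35D, against 3.67, 1.105 and 5.49 CPM in C25D, a log2 fold change of 6.57 ± 0.83 in T35D and 8.79 in C35D. enam, for the enamel protein enamelin, had 187, 26.8 and 141 CPM in T35D and 398, 139.6 and 501 CPM in C35D, against 8.75, 16.6 and 22.8 CPM in C25D. Osteocalcin, bglap, had 9.87, 12.9 and 12.5 CPM in T35D and 14.2, 11.2 and 26.5 CPM in C35D, against 0.859, 0.884 and 1.87 CPM in C25D, with no separation of T35D and C35D. Of the 25 tested members of the list, 6 were higher and 1 lower by an unadjusted p of 0.05, near the share of all genes (18.7% higher), with a median of 0.40. In C35D 13 of them were above C25D in every library (14.7% of all genes).

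Lists of pigment, matrix and skin had medians below 0. Pigment cell genes had 14 of 25 lower and 1 higher by an unadjusted p of 0.05 (7.73% and 18.7% of all genes), with a median of -1.26. The melanocortin receptor gene mc1r had 0.154, 0.0945 and 0.283 CPM in T35D and 0.566, 1.08 and 0.766 CPM in C35D, against 1.17, 1.105 and 2.12 CPM in C25D, and the pteridine pigment gene gch2 had 1.54, 0.851 and 1.48 CPM in T35D and 2.02, 2.89 and 2.65 CPM in C35D against 6.95, 3.76 and 8.11 CPM in C25D. Collagen chains had 5 of 39 lower, not far from the 7.73% of all genes, and 0 higher, with a median of -0.55. Keratins and skin genes had 4 of 33 lower, also not far from that share, and 0 higher, with a median of -0.75. The simple-epithelium keratin krt18a.1 had 133, 51.04 and 71.4 CPM in T35D against 234, 194 and 217 CPM in C25D.

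**Figure D4:**
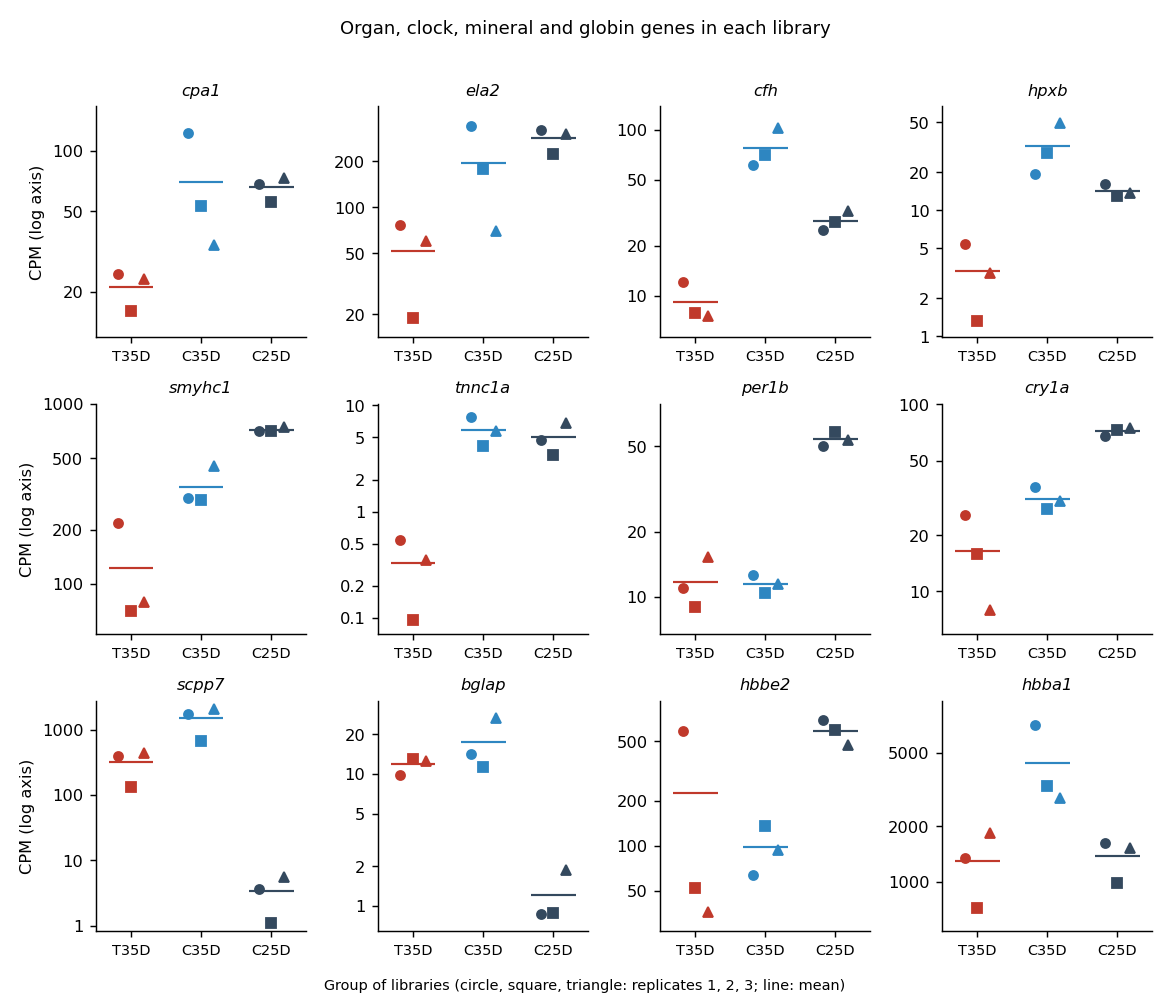
Levels of 12 genes of pancreas (cpa1, ela2), liver (cfh, hpxb), muscle (smyhc1, tnnc1a), clock (per1b, cry1a), mineral (scpp7, bglap) and red cells (hbbe2, hbba1), in CPM on a logarithmic axis, for T35D (red), C35D (blue) and C25D (dark), each library a point and each mean a line. T35D and C35D overlap below C25D for per1b and above C25D for bglap. They lie on opposite sides of C25D for cfh and hpxb, and T35D-1 stays with C25D for hbbe2.

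Several clock genes were lower at 35 dpf in both groups of that age. per1b, a repressor of the clock, had 11.03, 8.98 and 15.3 CPM in T35D and 12.6, 10.43 and 11.4 CPM in C35D, against 50.1, 58.3 and 53.3 CPM in C25D. Its log2 fold change was -2.18 ± 0.36 in T35D and -2.20 in C35D, where it was called at an adjusted p of 0.0285 by edgeR's quasi-likelihood test. per2 had 43.3, 25.2 and 27.7 CPM in T35D and 34.3, 32.2 and 34.9 CPM in C35D, against 106, 102 and 104 CPM in C25D, and the light-induced repressor cry1a had 25.6, 15.9 and 7.92 CPM in T35D and 36.0, 27.5 and 30.3 CPM in C35D against 67.5, 72.5 and 74.7 CPM in C25D. The output gene dbpa followed, at 1.47, 0.945 and 0.495 CPM in T35D and 1.94, 2.95 and 2.44 CPM in C35D, against 4.37, 5.16 and 5.30 CPM in C25D. Neither per1a, at 8.33, 4.35 and 4.45 CPM in T35D against 6.25, 6.11 and 8.05 CPM in C25D, nor nr1d1, at 107, 54.4 and 28.7 CPM in T35D against 35.6, 49.0 and 48.6 CPM in C25D, was separate. The hour of sampling was not given in the sources used here. Over the 42 clock and glucocorticoid genes, 5 were higher and 9 lower, with a median of -0.04. The higher ones included the activator genes bmal1a and bmal2 and the glucocorticoid targets fkbp5 and klf9, all named after their values were seen.

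Eye and nerve genes varied widely between libraries of the same group. The medians were -0.62 for 56 genes of phototransduction and retina, -0.83 for 55 lens crystallins and -0.78 for 62 genes of the synapse. At an unadjusted p of 0.05, 1, 7 and 10 members of the 3 lists were lower and 0, 3 and 0 higher. Their C35D medians were -1.80, -1.76 and -1.54. Mean levels of all 3 lists were lowest in T35D-3 within T35D and in C35D-1 within C35D, the libraries with the lowest retina markers. Without T35D-3 the medians were -0.070 for retina, -0.27 for lens and -0.27 for synapse. gfap, of glia, was below C25D in every T35D library, at 7.56, 3.31 and 1.56 CPM in T35D and 13.7, 8.44 and 6.27 CPM in C35D, against 17.8, 16.9 and 24.8 CPM in C25D. The brain and nerve markers (elavl3, elavl4, snap25a, syt1a and gfap) did not follow it as a sum. They summed to 768, 667 and 48.7 CPM in T35D and 87.9, 423 and 248 CPM in C35D, against 641, 800 and 670 CPM in C25D.

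Globins showed 2 patterns. hbbe2, an embryonic globin by name, had 591, 52.4 and 35.9 CPM in T35D and 64.2, 136 and 93.9 CPM in C35D, against 692, 595 and 474 CPM in C25D. T35D-1 thus lay within C25D, far above the other T35D libraries and all C35D libraries, and without T35D-1 the log2 fold change was -3.75, with an adjusted p of 0.000537 in edgeR's quasi-likelihood test. The embryonic hbae1.3 was likewise highest of T35D in T35D-1, at 109.7, 8.70 and 11.7 CPM in T35D and 3.07, 15.6 and 12.5 CPM in C35D, against 149.8, 184 and 169 CPM in C25D. The adult hbba1 had 1339, 723 and 1836 CPM in T35D and 7088, 3313 and 2832 CPM in C35D, against 1633, 984 and 1530.5 CPM in C25D, so that it was higher at 35 dpf without warming but not in T35D. In the fit of 9 libraries, T35D minus C35D was -1.76 ± 0.50 on the log2 scale for hbba1 (adjusted p = 0.0725 in edgeR's quasi-likelihood test). The heme synthesis gene alas2 was lower, at 142, 117 and 95.3 CPM in T35D against 257, 195 and 251 CPM in C25D. Over the 16 globins and red cell genes, 3 were lower and 0 higher, with a median of -1.32.

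Immune genes were mixed. Of 30 adaptive immune genes, 5 were higher and 4 lower by an unadjusted p of 0.05, against 18.7% and 7.73% of all genes, with a median of -0.08. In C35D 17 of them were above C25D in every library (14.7% of all genes), with a median of 1.02. The recombinase gene rag1, needed to build antigen receptors, had 6.79, 1.51 and 0.707 CPM in T35D and 3.23, 35.6 and 35.7 CPM in C35D, against 12.6, 14.4 and 31.9 CPM in C25D. Lymphocyte markers (lck, zap70, cd79a and rag1) summed to 10.5, 5.67 and 2.69 CPM in T35D and 6.46, 46.0 and 47 CPM in C35D, against 15.9, 18.9 and 38.2 CPM in C25D. rag1 made up most of the sums in C25D, so they are not separate from its own values. Of 34 innate and inflammatory genes, 2 were higher and 3 lower (median -0.36). Among them the macrophage gene mpeg1.1 had 2.78, 1.51 and 1.91 CPM in T35D and 10.3, 10.43 and 8.77 CPM in C35D, against 5.93, 4.35 and 8.42 CPM in C25D. Lysozyme, lyz, had 1.70, 0.756 and 2.26 CPM in T35D and 27.3, 19.4 and 6.96 CPM in C35D, against 5.70, 5.23 and 7.55 CPM in C25D. The cytokine feedback gene socs3b was higher and even, at 35.5, 37.8 and 46.4 CPM in T35D and 22.3, 14.8 and 13.3 CPM in C35D, against 20.9, 19.9 and 20.3 CPM in C25D.

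Cholesterol and antioxidant genes were on balance lower. For cholesterol synthesis the median was -0.79, with 9 of 26 lower and 2 higher, and C35D against C25D, with the same C25D libraries, had a median of -0.73. sqlea, the squalene epoxidase gene, had 4.01, 1.23 and 1.202 CPM in T35D and 0.323, 5.04 and 2.72 CPM in C35D, against 7.34, 15.3 and 17.96 CPM in C25D. Of 35 antioxidant genes, 7 were lower and 2 higher, with a median of -0.57. The metallothionein gene mt2 was higher, at 148, 2377 and 944 CPM in T35D and 152, 331 and 83.2 CPM in C35D, against 76.3, 66.8 and 64.2 CPM in C25D, and keap1a, the sensor that restrains Nrf2, was lower at 15.6, 5.198 and 5.44 CPM in T35D against 29.9, 29.2 and 28.4 CPM in C25D.

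Respiratory chain genes had 1 of 57 lower (cox8a, of cytochrome oxidase) and 0 higher, with a median of -0.15. Of 36 hypoxia genes, 2 were higher and 3 lower, with a median of -0.08. Among them epas1a, coding for a hypoxia-inducible factor, had 17.7, 3.40 and 5.94 CPM in T35D and 31.6, 39.6 and 33.1 CPM in C35D, against 33.4, 28.9 and 36.5 CPM in C25D. Of 23 genes of the growth and thyroid hormone axis, 3 were higher and 3 lower, with a median of -0.16. The thyroid hormone receptor gene thraa had 8.87, 22.5 and 38.6 CPM in T35D and 8.08, 6.63 and 6.55 CPM in C35D, against 5.86, 5.23 and 6.11 CPM in C25D. igf1 had 4.16, 0.756 and 1.27 CPM in T35D against 2.42, 1.69 and 1.18 CPM in C25D, with T35D-1 above and the others around or below C25D, and gh1 was too low to be tested.

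**Figure D5:**
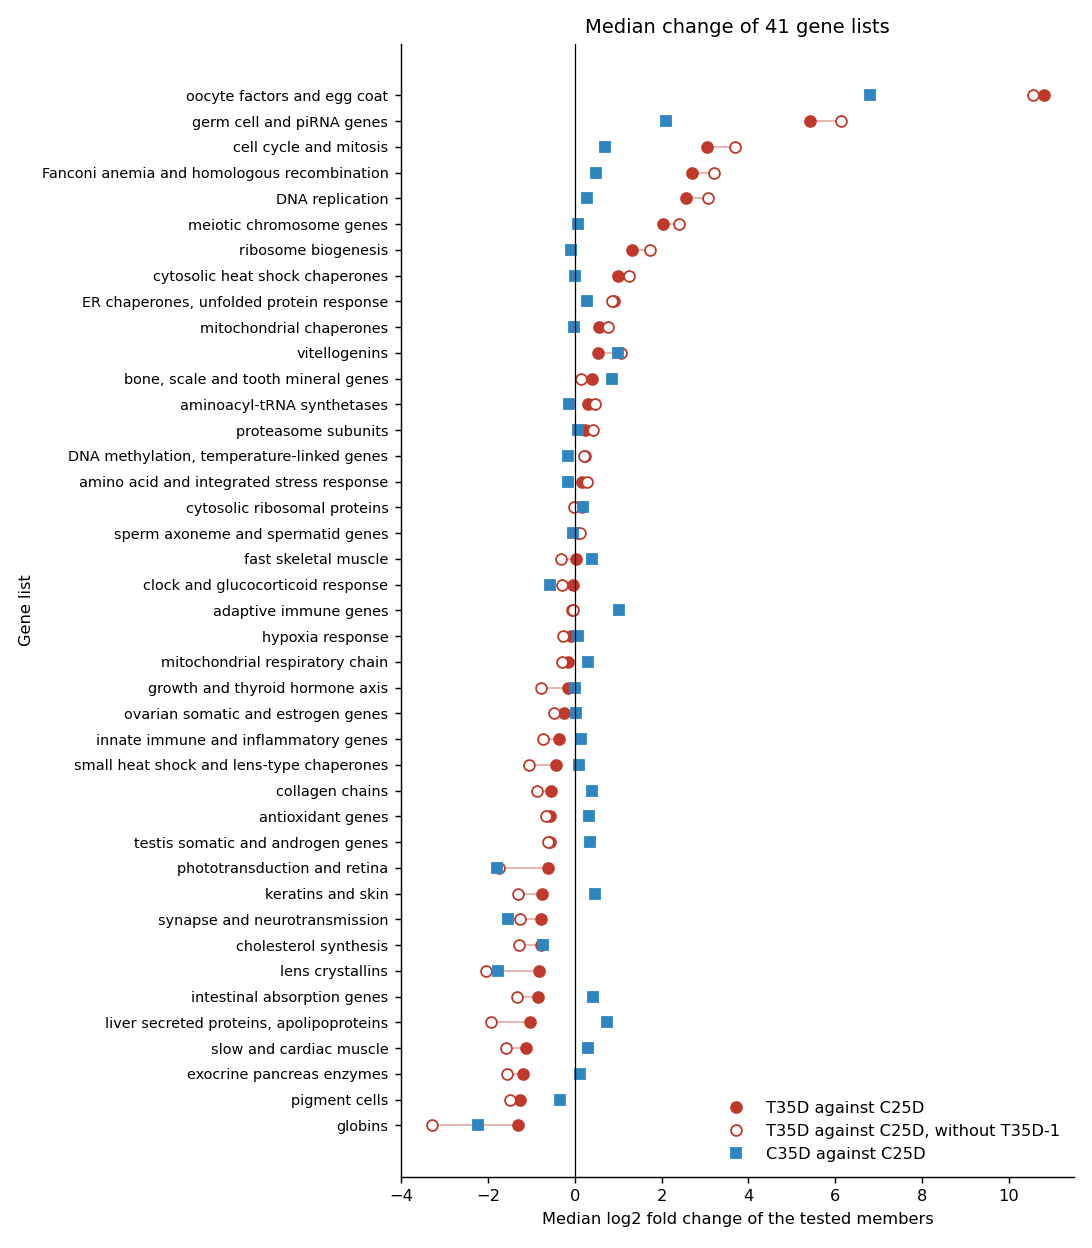
Median log2 fold change of the tested members of each of 41 gene lists, for T35D against C25D (red points), the same without T35D-1 (open points) and C35D against C25D (blue squares), which shares the C25D libraries. Each fit has its own tested members, 25 oocyte genes with T35D-1 and 39 without, so a move of a point can also come from a change of members. Leaving out T35D-1 moves most medians away from 0, and the lists of liver, pancreas, gut, slow muscle and skin lie below 0 in T35D and above 0 in C35D.

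The remaining genes with the smallest p in each direction were taken by rule. The rule asked for a mean of at least 5 CPM in the higher group and no overlap of the T35D and C25D libraries. Among the higher ones, arrdc2, of the arrestin domain family, had 54.0, 47.4 and 95.2 CPM in T35D and 26.9, 20.8 and 26.2 CPM in C35D, against 9.45, 8.62 and 11.5 CPM in C25D. lmo7b, tied to cell junctions, had 46.1, 77.7 and 154 CPM in T35D and 34.1, 21.2 and 38.5 CPM in C35D, against 12.02, 10.3 and 10.9 CPM in C25D. In both, C35D lay between the other groups without overlap. The basement membrane gene nid2b had 2.85, 10.6 and 18.1 CPM in T35D and 5.74, 3.80 and 7.03 CPM in C35D, against 0.156, 0.221 and 0.125 CPM in C25D, where the 3 libraries held 7 counts in all. paplnb, papilin of the extracellular matrix, had 34.7, 7.37 and 139 CPM in T35D and 100.0, 26.7 and 339.7 CPM in C35D, against 0.468, 0.442 and 0.624 CPM in C25D, and the mucin gene muc5d had 4.47, 4.16 and 10.5 CPM in T35D and 0.404, 3.17 and 0.836 CPM in C35D against 0.547, 0.663 and 0.499 CPM in C25D.

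Of the lower ones, zgc:136410 came first, at 1.08, 0.662 and 0.495 CPM in T35D and 15.4, 18.2 and 18.5 CPM in C35D, against 12.9, 7.44 and 9.54 CPM in C25D, a log2 fold change of -3.72 ± 0.50. The transporter gene abcc12 was at 21.7, 13.6 and 11.7 CPM in T35D and 49.0, 31.2 and 32.03 CPM in C35D, against 76.0, 66.9 and 77.5 CPM in C25D. The detoxifying cytochrome gene cyp3c4 was at 2.78, 3.02 and 2.12 CPM in T35D and 14.3, 10.0 and 10.0 CPM in C35D, against 11.4, 19.5 and 13.0 CPM in C25D. The troponin I gene tnni4b.3 was at 2.39, 1.32 and 0.778 CPM in T35D and 10.6, 9.92 and 9.61 CPM in C35D, against 13.9, 14.7 and 13.1 CPM in C25D. slc6a11b, a GABA transporter gene, was at 0.540, 0.189 and 0.0707 CPM in T35D and 0.646, 3.00 and 2.72 CPM in C35D, against 4.68, 3.83 and 7.30 CPM in C25D. The rule took only genes without overlap of T35D and C25D, so that T35D-1 lay below every C25D library by choice. The rule also took LOC100007049, which has no known role given here, at 5.94, 37.7 and 16.3 CPM in T35D against 1.17, 0.663 and 0.437 CPM in C25D. It took si:dkey-251i10.2, at 0.848, 0.567 and 1.63 CPM in T35D and 1.62, 4.02 and 6.68 CPM in C35D, against 10.5, 7.73 and 11.3 CPM in C25D. In that gene C35D was also below C25D in every library and overlapped T35D. Another was si:ch211-217a12.1, at 7.63, 5.01 and 5.66 CPM in T35D and 38.2, 10.7 and 18.2 CPM in C35D, against 27.4, 28.8 and 24.7 CPM in C25D.

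T35D was set against C35D directly in a fit of all 9 libraries, in which both groups have the same age. Among 21012 genes tested, edgeR's quasi-likelihood test called 0 higher (0.0%) and 1 lower (0.00476%) at an adjusted p of 0.05, while 4799 were higher (22.8%) and 2670 lower (12.7%) by an unadjusted p of 0.05. The 1 called was zgc:136410, with a difference of -4.52 ± 0.42 on the log2 scale and an adjusted p of 0.0307, and every T35D library was below every C35D library. The median difference over all genes in this fit was 0.25. For the cytosolic chaperones it was 1.31, with 14 of 36 above C35D in every library (10.4% of all genes). It was 1.43 for ribosome biogenesis, where only 2 of 58 lay above C35D in every library (10.4% of all genes). The mean log2 CPM of that list was 3.97 in T35D-1, below the 4.21 to 4.79 of C35D. The median difference was -1.76 for liver, -1.44 for pancreas enzymes and -1.22 for slow and cardiac muscle. Below C35D in every library lay 45 of 53, 9 of 27 and 15 of 30 of these genes (13.5% of all genes). C35D against C25D on its own gave 37 genes higher (0.181%) and 11 lower (0.0538%) of 20459 at an adjusted p of 0.05.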

How the data were processed

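From total RNA of whole fish, mRNA was purified with oligo(dT) beads and sequenced on the BGISEQ-500 platform as single-end reads. The authors cleaned the reads, aligned them with HISAT2 2.0.4 and, for coding genes, with Bowtie2 2.2.5 to GRCz11, and estimated expression with RSEM 1.2.12, as their methods and processing notes state; the strand used in counting was not given in the sources used here. The deposited table holds the RSEM expected counts and a second value per gene and library whose unit the file header does not name; it was taken as FPKM because it is proportional to CPM within a gene. Here the expected counts were rounded to whole numbers and used in every test. These deposited values, taken as FPKM, were used only to check the counts, and the FPKM to CPM quotient of a gene varied between libraries by a median of 0.00487 of its mean (SD over mean, 7486 genes). Beside the gene identifiers, the table read here held no further columns. Gene symbols came from RefSeq for 24087 of 26225 identifiers.

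T35D and C25D were fitted in edgeR 4.0.16 (R 4.3.3) with filterByExpr, TMM factors and the quasi-likelihood test, with Benjamini-Hochberg adjustment at 0.05, and the same was done for C35D against C25D and for the 9 libraries of T35D, C35D and C25D. With 3 libraries against 3, an exact permutation test of a single value cannot give a p under 0.1. Alternatives were DESeq2 1.42.0, limma-voom in limma 3.58.1, other scalings, other filters on low counts, fits of 9 and of 21 libraries, a block for the replicate number and leaving out each library. Plotted and printed levels are CPM, and log2 CPM had a prior count of 0.5. The edgeR, DESeq2 and limma-voom fits of 6 libraries were also run on simulated data with known changes, and the other settings were not. The 41 gene lists and the genes compared were chosen with earlier results of these data known. Genes were named by rule: the 10 per direction with the smallest p, no overlap of the groups and at least 5 CPM in the higher group, up to 4 members of each list with the smallest p, and a fixed set. Of the fixed set, vtg1, ighm and rbm3 had no match by symbol. Same-numbered libraries of T35D and C25D deviated from their group means with correlations of -0.073, 0.23 and 0.099, so the numbers were not taken to pair them. A gene that the rule took is not reported here.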

Additional observations from a re-analysis of the deposited data

Results flagged for a closer look

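In 8 genes named above, zgc:136410 among them, every T35D library lay on one side of all C25D libraries and every C35D library on the other. The comparisons share the C25D libraries, and the difference of T35D minus C35D was tested in the fit of 9 libraries. In the 7 other than zgc:136410, on the log2 scale it was 3.11 for hsp90aa1.2, 2.82 for hsp70.1 and 1.57 for hsp70.3, the 3 chaperone genes of this kind. It was -3.09 for cfh and -3.29 for hpxb, both known from liver, and -1.96 for nr5a2 and -2.24 for mpeg1.1. None of these 7 differences passed the threshold in edgeR's quasi-likelihood test, where their adjusted p ran between 0.0514 and 0.0725. For zgc:136410, below C25D in T35D and above it in C35D, the difference did pass, with an adjusted p of 0.0307, but not when any 1 of the 9 libraries other than T35D-1 was left out.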

How the results depend on the processing

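The counts of genes called depended on the test and on T35D-1. For T35D against C25D at an adjusted p of 0.05, the counts of genes higher and lower were 2790 and 600 in DESeq2, 2 and 0 with a replicate block, 3 and 2 in one fit of 21 libraries, and 3719 and 1540 with an unadjusted p of 0.05 as the threshold. Leaving out each library gave 0 to 5872 higher and 0 to 4050 lower, the upper ends without T35D-1. DESeq2 without T35D-1, chosen after seeing the data, called 6272 higher and 4114 lower, and 6850 and 5090 at an unadjusted p. At an unadjusted p of 0.05, 2149 genes were higher with the replicate block and 1637 with limma-voom, 2409 were lower with scaling by library size alone, and leaving out each library gave 2169 to 6491 higher and 536 to 5247 lower. Of these genes 42.7% were higher with limma-voom, 57.0% with the block and 55.3% without T35D-1, against 70.7%. For C35D against C25D DESeq2 called 1229 higher and 1453 lower and the block 230 and 44, and leaving out each library, also chosen after seeing the data, gave 0 to 1547 higher and 0 to 1683 lower. For T35D against C35D DESeq2 called 3149 higher and 1835 lower, the block left 0 lower, and leaving out each library gave 0 to 6124 higher and 0 to 3992 lower. The cause of these differences was not tested.

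With scaling by library size alone, list medians were 0.72 for cytosolic chaperones, -0.073 for the amino acid response, -0.82 for testis, -1.48 for pigment, -1.03 for cholesterol, -0.38 for the respiratory chain, -0.30 for hypoxia, -0.29 for the clock, -0.79 for antioxidant and -0.33 for adaptive immune genes. With at least 10 counts in all libraries they were 1.58 for oocyte, -0.49 for sperm and -0.99 for pigment genes, and no vitellogenin was left to give a value. With no filter they were 0.24 for testis and -0.95 for pigment genes. With limma-voom they were -0.69 for testis, -0.57 for vitellogenins and -0.99 for cholesterol, which was -1.003 with the block. Leaving out each library gave medians of 0.65 to 1.24 for cytosolic chaperones, 0.25 to 0.88 for the endoplasmic reticulum, -0.042 to 0.47 for tRNA synthetases, 0.031 to 0.29 for the amino acid response, -0.69 to -0.23 for testis, -1.18 to 1.07 for vitellogenins, -1.94 to -0.72 for liver, -1.34 to -0.61 for intestine, -3.30 to -0.93 for globins, -1.63 to -0.97 for pigment, -1.28 to -0.60 for cholesterol, -0.28 to 0.0088 for hypoxia, -0.29 to 0.041 for the clock, -0.68 to -0.40 for antioxidant and -0.81 to 0.037 for growth genes. DESeq2, DESeq2 size factors in edgeR and the fits of 9 and 21 libraries moved no list median beyond the spread between libraries.

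Of 138 genes, DESeq2 called 110, the fit of 21 libraries 5 and the block 1, and the block changed no other call. Over all genes DESeq2 called 12.8% higher and 2.76% lower. Many of the 138 were named for a small p in these same libraries, so a high share was set by that choice. Some directions turned, and as the main fit called 0 genes, these could only be uncalled genes. cirbpa had -0.015 and cirbpb -0.14 by library size alone, and cirbpb -0.0052 with at least 10 counts. kdm6bb had -0.18 by library size, -0.039 with at least 10 counts, -0.16 with the block and -0.20 with voom. igf1 had -0.022 with the block and -0.037 with voom. Leaving out each library gave -0.22 to 0.48 for kdm6bb, -0.77 to 0.63 for igf1, -0.98 to 0.014 for sox9b, -0.43 to 0.29 for cyp19a1b, -0.11 to 0.87 for nr1d1, -0.42 to 0.22 for hbba1 and -0.16 to 0.42 for cirbpa. Genes with few counts in C25D, such as the egg coat genes, have uncertain fold changes.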
